A study of Mus musculus with 18 samples.

Results

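The genes described here are 8 transcription factors and transcriptional regulators of stem-like and memory T cells: *Tcf7*, *Lef1*, *Foxo1*, *Satb1*, *Id3*, *Bach2*, *Myb* and *Bcl6*. They were chosen by name, as a list, from the 45706 genes in the table of each library, with earlier results of these data known. All 8 passed the filter on low counts. The RNA was from splenic CD8+ T cells of OT-I mice, bred on C57BL/6 with the CD45.1 marker, which carry a transgenic receptor for an ovalbumin peptide. All cells were grown with IL-15 and IL-7. Repeat peptide stimulated cells received 10 ng/ml of the peptide on each of the first 5 days and kept it in the medium until day 8, whereas single peptide stimulated cells received it only once at the start. From day 5 to day 8 both kinds of cells were given 1 µM ibrutinib, an inhibitor of the kinase BTK, or its solvent DMSO. There were 4 libraries of repeat peptide cells with DMSO, 5 of repeat peptide cells with ibrutinib, 5 of single peptide cells with DMSO and 4 of single peptide cells with ibrutinib. The strain label is wild type for all 18. The genotype entry reads like the name of an experiment (for 4 of the 6 experiments it names a *Btk* knockout), was taken as one, and is lettered A to F here. All 4 groups are present in experiments A to D, while E holds only repeat peptide cells with ibrutinib and F only single peptide cells with DMSO. The model is a culture of cells with a single receptor specificity, and the ages of the mice are not given in the sources used here.

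T cells that keep the ability to divide, persist and renew themselves carry a transcription program in which TCF1, the product of *Tcf7*, is the best known factor. Chronic contact with antigen moves CD8+ T cells away from that program and towards exhaustion, with inhibitory receptors on the surface and poor cytokine production. TCF1 and its relative LEF1 are DNA-binding proteins of the same family that share a motif. FOXO1 drives genes of T cell recirculation and survival, and signals from the T cell receptor through AKT drive it out of the nucleus. BACH2 represses effector genes, ID3 blocks E proteins by pairing with them, MYB is a factor of progenitor cells, BCL6 is a repressor of follicular helper and memory cells, and SATB1 is an organizer of chromatin that is high in naive cells.

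All 8 genes are protein-coding in GENCODE M21 (GRCm38). *Tcf7* (ENSMUSG00000000782) lies on the minus strand of chromosome 11 from 52252371 to 52283014 and *Lef1* (ENSMUSG00000027985) on the plus strand of chromosome 3 from 131110471 to 131224356. *Foxo1* (ENSMUSG00000044167) is on the plus strand of the same chromosome from 52268336 to 52353221, and *Satb1* (ENSMUSG00000023927) on the minus strand of chromosome 17 from 51736187 to 51833290. *Id3* (ENSMUSG00000007872) and *Bach2* (ENSMUSG00000040270) are both on the plus strand of chromosome 4, from 136143497 to 136145755 and from 32238804 to 32586108. *Myb* (ENSMUSG00000019982) is on the minus strand of chromosome 10 from 21124935 to 21160984 and *Bcl6* (ENSMUSG00000022508) on the minus strand of chromosome 16 from 23965052 to 23988852. Antisense or overlapping genes lie within all of them except *Id3* and *Bcl6*. Summed over the 18 libraries, the count of any of these overlapping genes was at most 1.64% of that of the gene it overlaps. That was an antisense gene within *Lef1*. Whether the counting used strand is not given in the sources used here.

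Since TCF1, LEF1 and FOXO1 bind DNA themselves, their motifs were looked for in the promoters of the 8 genes. RefSeq promoters (GRCm38.p6, 250 bases before to 50 after a start) were at hand for all 8 genes, 17 in total because *Tcf7*, *Lef1*, *Satb1* and *Bcl6* have several starts. The TCF and LEF motif CTTTGA, on either strand, was in promoters of 3 of the 8 genes (*Lef1*, *Bach2* and *Bcl6*). Of the 27025 mouse genes searched 18.2% had it. Counted by promoter, it was in 3 of the 17 and in 16% of all 32851. The FOXO motif GTAAACA was in promoters of 2 of the 8 (*Tcf7* and *Myb*), and in 4.05% of all genes. It was in 2 of the 17 promoters and in 3.65% of all promoters. A gene with several starts has more windows in which a match can fall, so the shares of promoters are the more alike. The windows around these matches are shown 5′ to 3′ on the strand of the gene, with the motif in capitals. A motif on the other strand reads TCAAAG or TGTTTAC. The start positions in brackets are of the first motif base, counted from the transcription start.
Tcf7, FOXO (2): cctttataggaGTAAACAgacccccgcca
Myb, FOXO (34): ttgatggcatcTGTTTACagagttacac
Lef1, TCF and LEF (-180): aaaatacatggTCAAAGgaaaataggta
Lef1, TCF and LEF (-120): attgtctgttcTCAAAGtcaggtcttgc
Bach2, TCF and LEF (-93): ctgtgttgttcTCAAAGttgagtagagt
Bcl6, TCF and LEF (-44): gtggccccctaCTTTGAcagaataacag
The *Tcf7* match sits at the more downstream of its 2 starts, within chr11:52282577-52282605, and the promoter of the other start has none. The *Bcl6* match likewise lies only in the promoter of the more downstream of its 2 starts. Both *Lef1* matches sit before the most downstream of its 4 starts. The E-box CAGNTG is the motif of the E proteins that ID3 blocks. It was in promoters of 4 of the 8 genes (*Tcf7*, *Lef1*, *Myb* and *Satb1*) and in 54.6% of all genes. By promoter it was in 7 of the 17 and in 51.4% of all. In *Myb* it overlaps the FOXO match. TGANTCA, which BACH factors share with AP-1, was in promoters of 8.97% of all genes (7.81% of promoters) and its letters were not in any of these 17 windows. These matches are letters in a window, and no binding was measured.

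Libraries held between 23445922 and 51995372 expected counts in all. Genes that define CD8+ T cells (*Cd3d*, *Cd3e*, *Cd3g*, *Cd8a*, *Cd8b1*, *Trac*, *Lck* and *Cd2*) were present in every library, with a summed level from 3464 to 5038 TPM, a level that is corrected for transcript length and scaled to the same total in each library. Summed over their lists, markers of B cells reached at most 8.07 TPM, of myeloid cells 9.18, of dendritic cells 2.35 and of erythroid cells 1.84. The 3 markers of CD4+ T cells summed to between 15.37 and 20.84 TPM in repeat peptide cells with DMSO and between 1.87 and 11.15 in single peptide cells with DMSO, nearly all of the former from *Zbtb7b*. *Foxp3*, the factor of regulatory T cells, ran the other way, at a mean of 0.0375 TPM in repeat peptide cells with DMSO, 0.4 with ibrutinib, and 1.79 and 2.78 in single peptide cells with DMSO and ibrutinib, and *Cd4* was at 0.17 TPM or less in every library. The 2 NK cell markers summed to between 2.64 and 11.36 TPM in the former and between 0.59 and 2.63 in the latter. In repeat peptide cells with ibrutinib these sums were 5.38 to 16.1 TPM for CD4+ T cells and 2.69 to 25.59 for NK cells. Their part in the results was not tested. Fewer cells that express a gene and less RNA of it per cell cannot be told apart in such libraries.

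Compared per length, *Tcf7* had the highest mean level of the 8 genes in all 4 groups and *Bcl6* the lowest. Only in repeat peptide cells with DMSO did the libraries of *Tcf7* overlap with those of the next gene, *Satb1*. In single peptide cells with DMSO the mean levels were 408.9 ± 77.4 TPM (SD, n = 5) for *Tcf7*, 149.9 ± 28 for *Lef1* and 130.0 ± 26.1 for *Satb1*. The libraries of *Lef1* and *Satb1* overlapped, while those of *Tcf7* lay above both. *Id3* followed at 56.92 ± 9.46 TPM, *Myb* at 29.95 ± 14.5, *Foxo1* at 29.39 ± 5.41, *Bach2* at 14.81 ± 4.35 and *Bcl6* at 1.69 ± 0.583, and in this sequence *Myb* overlapped with its neighbours. In repeat peptide cells with DMSO *Tcf7* was at 104.3 ± 41.0 TPM (SD, n = 4), overlapping with *Satb1* at 103.9 ± 11.7. There *Lef1* (57.76 ± 9.13 TPM) overlapped with *Id3* (60.54 ± 10), and *Foxo1* (12.95 ± 2.34 TPM) came after *Bach2* (20.76 ± 2.38), without overlap.

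**Figure D1:**
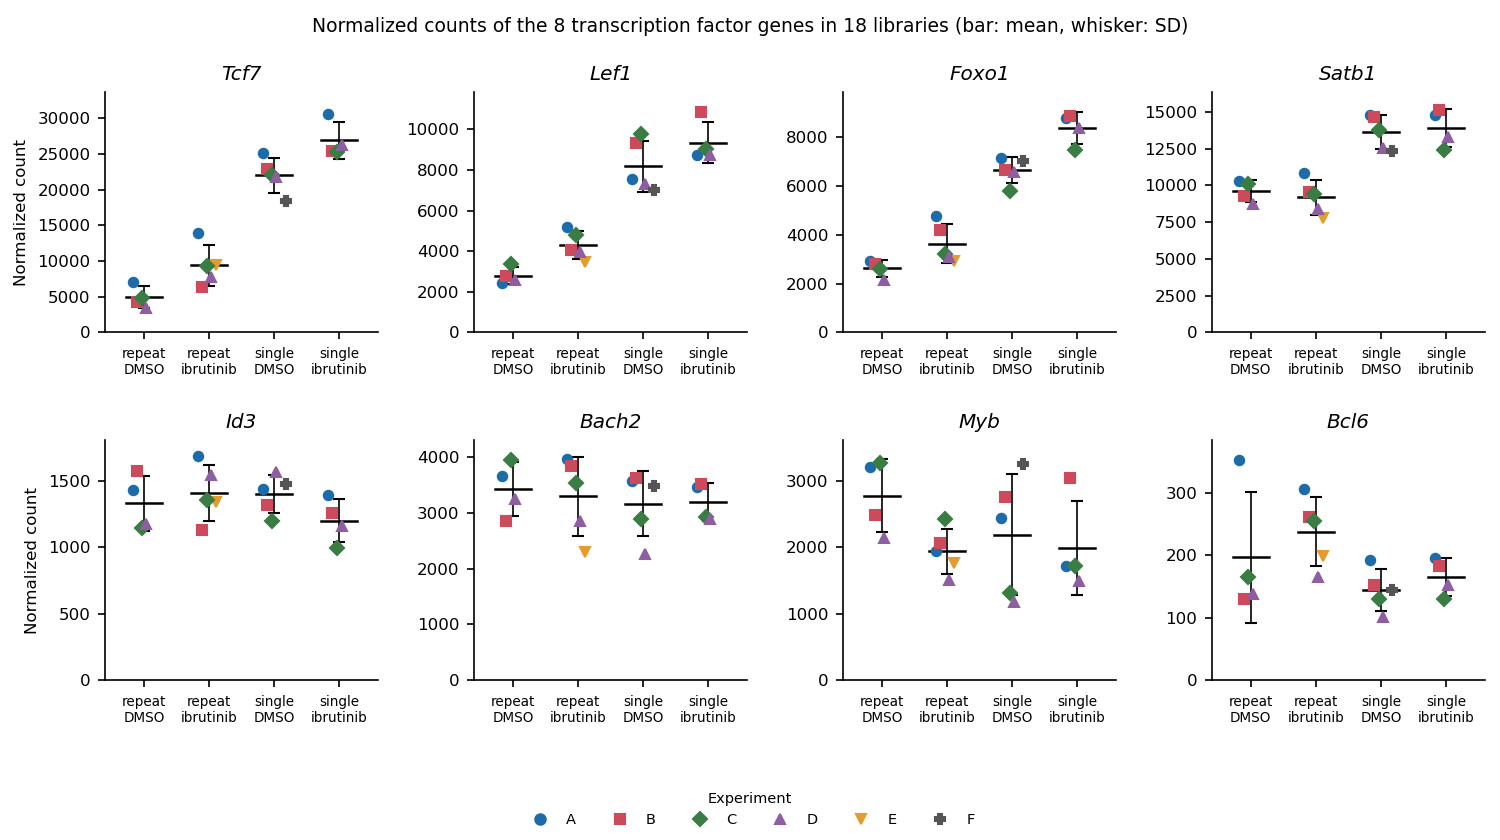
Normalized counts (y axes, linear from 0) of the 8 genes in all 18 libraries, by group (x axes), with symbols for the experiment, bars for the group mean and whiskers for the SD. Repeat peptide libraries lie below all single peptide libraries for *Tcf7*, *Lef1*, *Foxo1* and *Satb1*, whereas the groups overlap for *Id3*, *Bach2*, *Myb* and *Bcl6*.

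The first comparison asked how the genes differ between repeat and single peptide stimulated cells without the drug. *Tcf7*, *Lef1*, *Foxo1* and *Satb1* were lower in repeat peptide cells and the other 4 genes were not called. Normalized counts are counts scaled to a common library size. *Tcf7* had 7120, 4303, 4793 and 3485 normalized counts in experiments A to D of repeat peptide cells with DMSO. In single peptide cells with DMSO it had 25150, 22860, 22020 and 21750 in A to D and 18350 in F. The lowest single peptide library was therefore well above the highest repeat peptide library. *Lef1* had 2427, 2753, 3387 and 2593 normalized counts in the repeat peptide libraries against 7543, 9312, 9756, 7320 and 6991 in the single peptide libraries. *Foxo1* had 2932, 2803, 2605 and 2160 against 7149, 6670, 5803, 6552 and 7042. Neither gene had overlapping groups. *Satb1* had 10280, 9306, 10110 and 8735 normalized counts against 14810, 14620, 13750, 12570 and 12330, again without overlap but with a smaller gap. The share of all tested genes whose groups do not overlap is not given here, for this or the other comparisons.

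A gene was called where the adjusted p-value was under 0.05, the mean normalized count at least 50 and the absolute log2 fold change above 0.2. The fitted difference was -2.16 ± 0.21 (log2, SE) for *Tcf7*, which is 4.47-fold lower in repeat peptide cells (adjusted p = 2.13e-07, edgeR's quasi-likelihood test with Benjamini-Hochberg adjustment). It was -1.55 ± 0.14 for *Lef1*, 2.93-fold lower (edgeR adjusted p = 6.86e-08), and -1.34 ± 0.14 for *Foxo1*, 2.53-fold lower (edgeR adjusted p = 3.01e-07). *Satb1* was 1.42-fold lower, at -0.50 ± 0.11 (edgeR adjusted p = 0.000626), but was not called by limma on TPM (adjusted p = 0.278). All 4 were lower in 4 of 4 experiments. The count of 4 of 8 genes stands beside a background of 47% of the 12255 tested genes called in this comparison, 22.8% higher and 24.2% lower, so that the share of genes called was near that of all genes. None of the 8 genes was called higher, and their median log2 fold change was -0.29 against 0.00 over all tested genes. With the experiment as a replicate block *Myb* was also called, higher in repeat peptide cells by 0.59 ± 0.21 on the log2 scale (edgeR adjusted p = 0.0296), in a fit that called 53.6% of all genes. Without the block it was at 0.34 ± 0.27 (edgeR adjusted p = 0.292).

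With ibrutinib in both arms, the same 4 genes were lower in repeat peptide cells. *Tcf7* was at -1.52 ± 0.20 (log2 fold change, SE), *Lef1* at -1.12 ± 0.13, *Foxo1* at -1.20 ± 0.13 and *Satb1* at -0.60 ± 0.11. The edgeR adjusted p-values ranged from 1.16e-06 to 0.000178. By limma on TPM *Satb1* was not called (adjusted p = 0.18). The libraries did not overlap for any of the 4 genes, for which no share over all tested genes is given. Of all tested genes 38.4% were called, 18.7% higher and 19.6% lower. *Bcl6* was called only with the experiment as a replicate block, higher in repeat peptide cells by 0.56 (log2 fold change, edgeR adjusted p = 0.0285, with 48.6% of all genes called). Its value without the block was 0.52 ± 0.28 (edgeR adjusted p = 0.139).

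**Figure D2:**
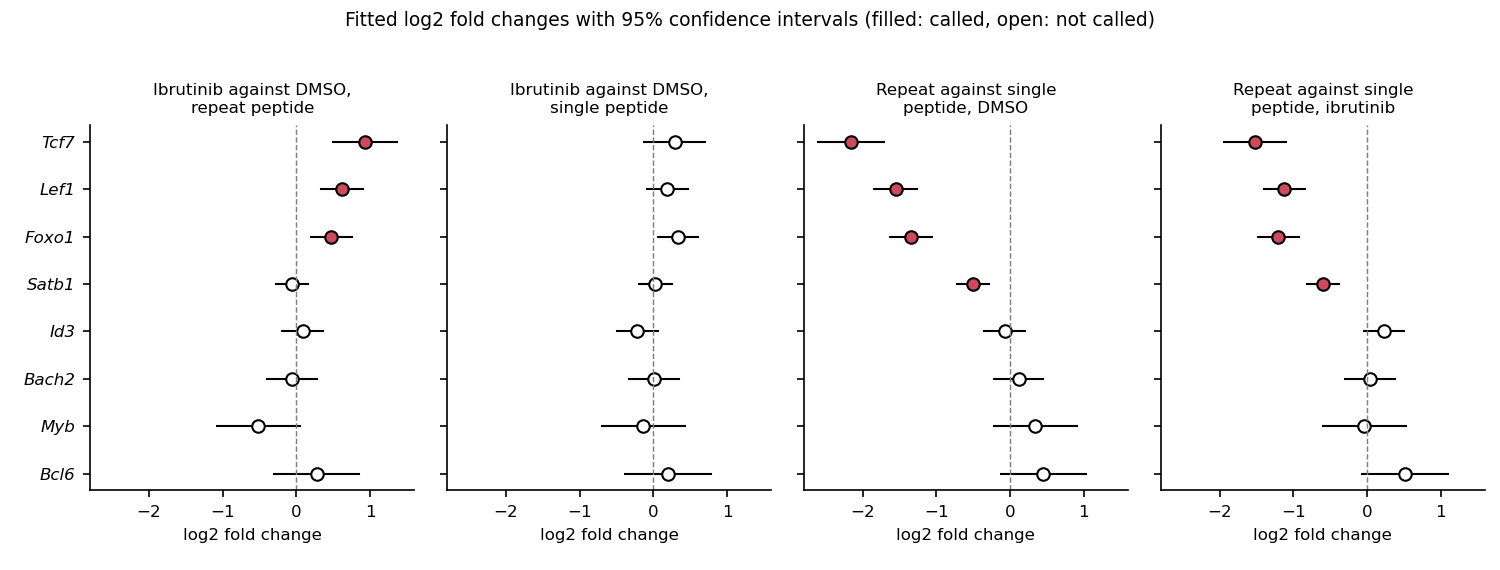
Fitted log2 fold changes (x axes, points) with 95% confidence intervals (lines) of the 8 genes in 4 comparisons. Filled points are called genes, which are *Tcf7*, *Lef1* and *Foxo1* for ibrutinib in repeat peptide cells, and these with *Satb1* in both comparisons of repeat with single peptide cells.

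The second question was what ibrutinib changed in repeat peptide stimulated cells. *Lef1*, *Tcf7* and *Foxo1* were higher with the drug, by 1.54-fold, 1.90-fold and 1.39-fold, and the other 5 genes were not called. *Lef1* had 5202, 4035, 4783, 3966 and 3469 normalized counts in experiments A to E with ibrutinib against 2427, 2753, 3387 and 2593 in A to D with DMSO. The lowest ibrutinib library was just above the highest DMSO library. *Foxo1* had 4756, 4213, 3207, 3086 and 2944 normalized counts with ibrutinib, so that E, the lowest, was only slightly above the highest DMSO library at 2932. *Tcf7* had 13900, 6357, 9371, 7745 and 9508 normalized counts with ibrutinib. Its groups overlapped, since experiment B with ibrutinib was below experiment A with DMSO (7120), but *Tcf7* was higher with ibrutinib in each of the 4 experiments. For all 3 genes the ibrutinib libraries remained below every single peptide library.

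The fitted log2 fold changes were 0.62 ± 0.14 (SE) for *Lef1* (edgeR adjusted p = 0.00942), 0.93 ± 0.20 for *Tcf7* (edgeR adjusted p = 0.00965) and 0.47 ± 0.13 for *Foxo1* (edgeR adjusted p = 0.0400). In this comparison 5.92% of all tested genes were called, 4.01% higher and 1.92% lower. The median log2 fold change of the 8 genes was 0.18 against 0.00 over all tested genes. The call of *Foxo1* was lost when 1 of 4 libraries was left out, namely C or D with DMSO (edgeR adjusted p = 0.108 and 0.143) or A or B with ibrutinib (edgeR adjusted p = 0.0974 and 0.0913). In a fit of the 2 repeat peptide groups alone only *Lef1* was called, and on the log2(TPM + 1) scale with limma none of the 3 was (adjusted p = 0.0780 for *Tcf7*, 0.317 for *Lef1* and 0.513 for *Foxo1*), with the same directions.

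*Satb1*, the fourth gene that was lower in repeat peptide cells, had 10850, 9576, 9426, 8384 and 7752 normalized counts with ibrutinib and 10280, 9306, 10110 and 8735 with DMSO. The groups overlapped throughout, and the difference was -0.06 with a 95% confidence interval from -0.28 to 0.16 on the log2 scale. *Id3* (0.09, interval from -0.19 to 0.36) and *Bach2* (-0.06, interval from -0.39 to 0.28) had differences near 0. *Myb* had 1939, 2062, 2421, 1505 and 1767 normalized counts with ibrutinib against 3207, 2476, 3262 and 2144 with DMSO. It was lower with ibrutinib in 4 of 4 experiments, but the groups overlapped and the difference of -0.52 ± 0.27 was not called (edgeR adjusted p = 0.27, and 0.144 with the replicate block). *Bcl6* was at 0.27 ± 0.28.

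Repeat peptide cells with ibrutinib were also set against single peptide cells with DMSO, which gives the distance that was left. *Tcf7* (-1.23 ± 0.19, log2 fold change and SE), *Lef1* (-0.93 ± 0.13), *Foxo1* (-0.87 ± 0.13) and *Satb1* (-0.57 ± 0.10) were lower, with edgeR adjusted p-values from 2.45e-05 to 0.000271. *Bcl6* was higher by 0.72 ± 0.26 (edgeR adjusted p = 0.0373). Its 5 ibrutinib libraries had 305.6, 261.6, 255.1, 166.1 and 198.8 normalized counts against 192.7, 152.5, 130, 100.9 and 144.4, so the groups overlapped, and the call was lost in 7 of 18 fits that left out a library (largest edgeR adjusted p = 0.0849). The libraries were A, B or C with ibrutinib and B, C, D or F with DMSO. By limma on TPM neither *Bcl6* (adjusted p = 0.128) nor *Satb1* (adjusted p = 0.0677) was called. Over all tested genes 32.9% were called in this comparison, 16.7% higher and 16.2% lower. The comparisons of repeat peptide cells with DMSO and with ibrutinib to single peptide cells with DMSO share the latter libraries, and the values of the members are given side by side for that reason only.

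In single peptide stimulated cells none of the 8 genes was called between ibrutinib and DMSO by edgeR, by DESeq2 or by limma on TPM. At an unadjusted p under 0.05 there was 1 gene, *Foxo1*, and 1658 of the 12255 tested genes. Over all tested genes 3.04% were called, 0.351% higher and 2.69% lower. *Foxo1* had 8795, 8868, 7467 and 8384 normalized counts in experiments A to D with ibrutinib against 7149, 6670, 5803, 6552 and 7042 in A to D and F with DMSO. The groups did not overlap, and *Foxo1* was higher with the drug in each of the 4 experiments, by 0.30, 0.41, 0.36 and 0.36 on the log2 scale. The fitted difference was 0.33 ± 0.13 (edgeR adjusted p = 0.233). With the experiment as a replicate block it was 0.36 ± 0.09 and was called (edgeR adjusted p = 0.0180), as were 9.09% of all genes. *Tcf7* had 30660, 25380, 25270 and 26250 normalized counts with ibrutinib, all above the 25150 of the highest DMSO library, but by little. Its difference of 0.29 had an interval from -0.13 to 0.71. *Lef1* had 8727, 10830, 9005 and 8748 normalized counts with ibrutinib, within the range of the DMSO libraries but for experiment B.

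Whether ibrutinib acted differently on the genes in the 2 kinds of cells was tested by the difference between its effects. Without a block none of the 8 genes was called by edgeR, DESeq2 or limma. An unadjusted p under 0.05 was found for 1397 of the 12255 tested genes and for 2 of the 8. These were *Tcf7*, with a larger rise in repeat peptide cells by 0.64 ± 0.28 on the log2 scale (edgeR adjusted p = 0.384), and *Lef1*, by 0.43 ± 0.19 (edgeR adjusted p = 0.382). With the experiment as a replicate block both were called, at 0.69 ± 0.19 (edgeR adjusted p = 0.0421) and 0.55 ± 0.15 (edgeR adjusted p = 0.0413). The background was 1.26% of all genes called without the block, 1.04% higher and 0.212% lower, and 5.54% with it. Within experiments, *Tcf7* was higher with ibrutinib by 0.97, 0.56, 0.97 and 1.15 in repeat peptide cells of A to D and by 0.29, 0.15, 0.20 and 0.27 in single peptide cells. The rise was larger in repeat peptide cells of every experiment. For *Lef1* the values were 1.1, 0.55, 0.50 and 0.61 against 0.21, 0.22, -0.12 and 0.26, again larger in every experiment. *Foxo1* had 0.70, 0.59, 0.30 and 0.51 against 0.30, 0.41, 0.36 and 0.36. Its order was turned in experiment C, and its interaction of 0.14 had an interval from -0.25 to 0.53 without the block and from -0.10 to 0.44 with it.

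**Figure D3:**
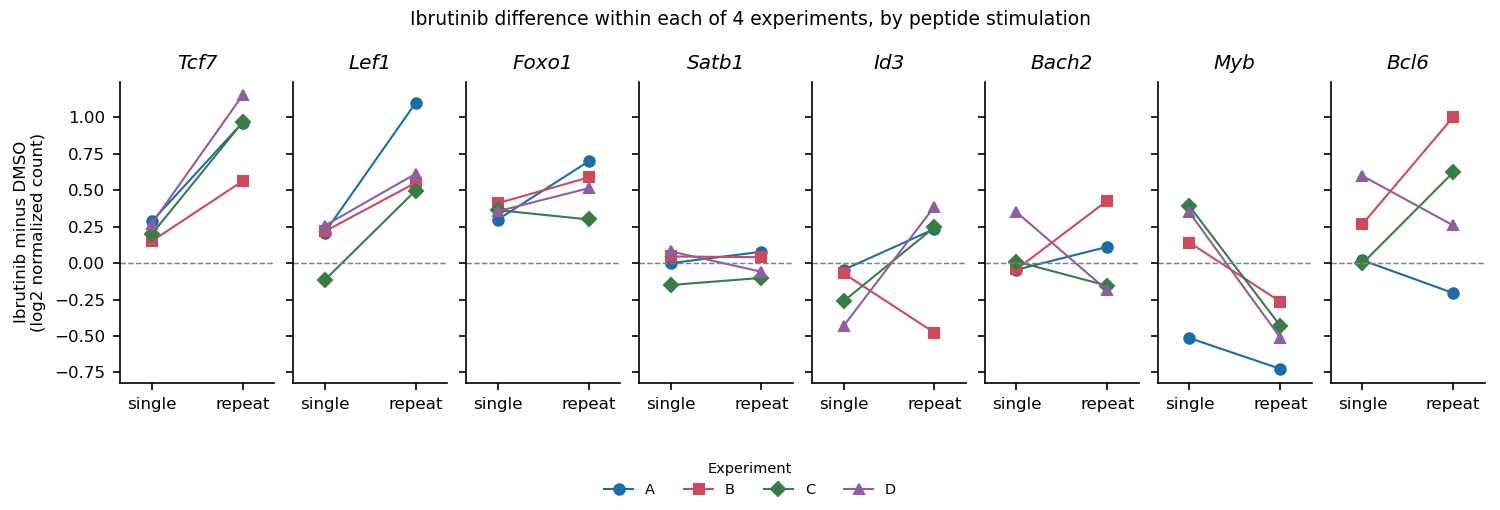
Difference between ibrutinib and DMSO in log2 normalized counts (y axis) within each of experiments A to D, for single and repeat peptide cells (x axes), with a line per experiment. All 4 lines rise for *Tcf7* and *Lef1*, and all *Myb* values of repeat peptide cells are below 0.

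For *Id3*, *Bach2*, *Myb* and *Bcl6* the experiment took a larger share of the sum of squares than the stimulation. *Id3* ranged from 997.8 to 1683 normalized counts over the 18 libraries and had the smallest spread of the 8 genes. It was lower with ibrutinib in single peptide cells of 4 of 4 experiments, by 0.05 to 0.43 on the log2 scale, which did not pass the test (-0.22 ± 0.13, edgeR adjusted p = 0.523). *Myb* in single peptide cells with DMSO had 2443, 2755, 1311, 1175 and 3253 normalized counts in A to D and F. That group alone spanned nearly the whole range of *Myb*, with C and D low and F the highest library but for C of repeat peptide cells with DMSO. *Bcl6* had 352.4 normalized counts in experiment A of repeat peptide cells with DMSO against 130.3, 165.5 and 138.8 in B to D. In the 16 libraries of experiments A to D, the experiment took 35.8% of the sum of squares of log2 CPM, the counts scaled by library size, of *Id3*, 45.6% of *Bach2*, 36.4% of *Myb* and 43.9% of *Bcl6*. The kind of stimulation took 5.0%, 12.6%, 12.8% and 23.0% of it, and the residual 44.2%, 39.9%, 35.7% and 20.9%. The experiment has 4 levels and the stimulation fewer, so the experiment takes a larger share by chance alone. The shares were not corrected for that. For *Tcf7*, *Lef1*, *Foxo1* and *Satb1* the stimulation took 82.7%, 83.2%, 82.7% and 85.7%, the experiment between 2.1% and 9.9%, and the residual between 2.1% and 4.4%. The medians over all tested genes were 41.6% for the stimulation and 18% for the experiment. The drug took 10.5% for *Foxo1*, 8.2% for *Lef1*, 7.2% for *Tcf7* and 0.0% for *Satb1*.

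**Figure D4:**
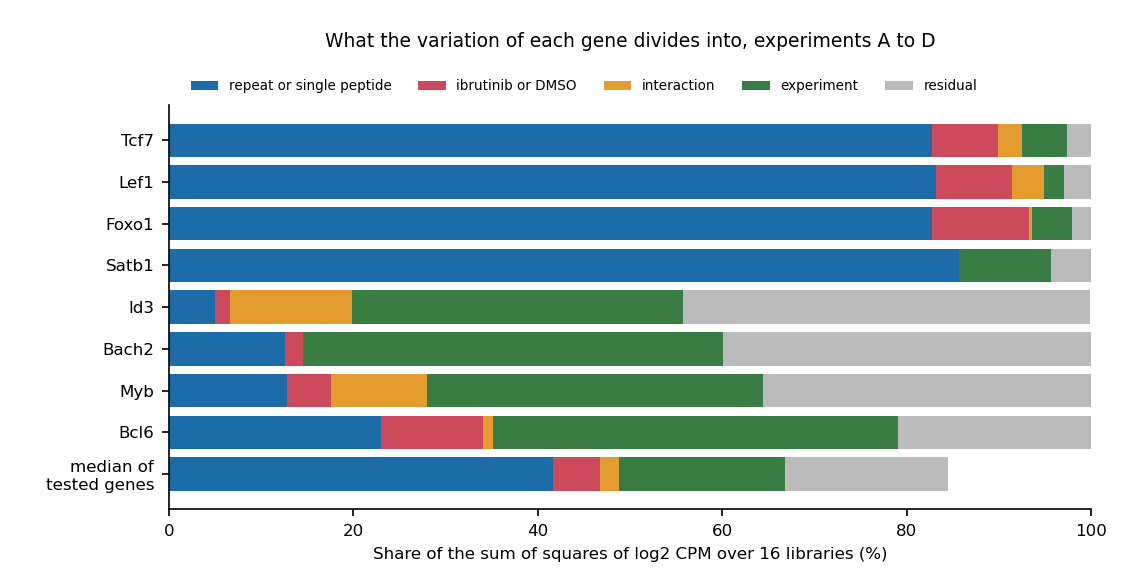
Share of the sum of squares of log2 CPM (x axis, percent) taken by stimulation, drug, their interaction, experiment and residual in the 16 libraries of experiments A to D, with a stacked bar per gene. The bar of medians over all tested genes does not add up to the full width. The stimulation takes 82.7% to 85.7% of *Tcf7*, *Lef1*, *Foxo1* and *Satb1* and 5.0% to 23.0% of the other 4 genes.

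The deposited tables also give the mean length of the transcripts of each gene, weighted by their estimated abundance, which moves when other transcripts of the gene are used. *Foxo1* has 1 annotated transcript and could not move. *Bach2*, with 7 annotated transcripts of 331 to 8882 bases, was shorter in repeat peptide cells with DMSO than in repeat peptide cells with ibrutinib and in single peptide cells with DMSO. Its mean length was 7840, 5579, 7391 and 7654 bases in experiments A to D of that group. With ibrutinib it was 8231, 8192, 8460, 8077 and 8523 bases in A to E, and in single peptide cells with DMSO 7886, 8381, 8681, 7973 and 8606 bases in A to D and F. All repeat peptide DMSO libraries were below all libraries of both these groups, and B was by far the lowest. Single peptide cells with ibrutinib, at 7578, 8554, 7950 and 8489 bases, overlapped with it. The difference was 1181 bases between ibrutinib and DMSO in repeat peptide cells and -1190 bases between repeat and single peptide cells with DMSO (two-sided exact permutation test, p = 0.00794 in both, the smallest that these group sizes allow). Both comparisons share the repeat peptide DMSO libraries. Adjusted over the 8929 genes whose length varied, p was 0.89 and 0.354, and no gene passed. An unadjusted p under 0.05 was found for 5.13% and 10.3% of those genes in these comparisons and for 4.29% between ibrutinib and DMSO in single peptide cells, where *Bach2* had an exact permutation p of 0.563. Without library B the differences were 668 and -677 bases, with p = 0.0179 and 0.0357 in exact permutation tests. In library B the median length of all genes was not shifted (a log2 deviation of 0.0036, from -0.0001 to 0.0072 over the 18 libraries).

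The level per length of *Bach2* takes its mean length into account, and its count does not. Its normalized counts were 3660, 2847, 3937 and 3238 in repeat peptide cells with DMSO and 3573, 3616, 2894, 2258 and 3467 in single peptide cells with DMSO, with no order between the groups. In TPM the repeat peptide DMSO libraries were at 22.14, 20.46, 22.90 and 17.54 against 19.75, 17.33, 11.74, 9.03 and 16.20. Only the lowest repeat peptide library overlapped with the single peptide libraries. On the log2(TPM + 1) scale the median of all tested genes was also higher in repeat peptide cells, by 0.14. The part of length in the TPM difference of *Bach2* was not tested. With an offset for the effective length the log2 difference was 0.35 in place of 0.11, and was not called either (edgeR adjusted p = 0.0676).

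**Figure D5:**
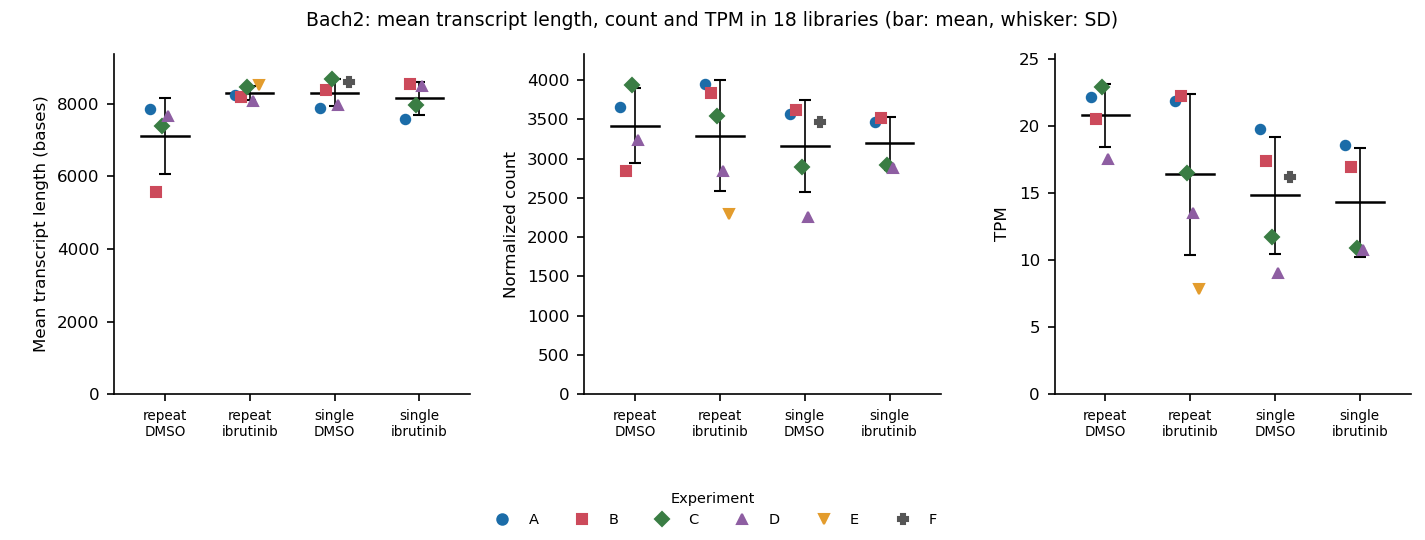
Mean transcript length in bases, normalized count and TPM of *Bach2* (y axes, linear from 0) in all 18 libraries by group (x axes), with symbols for the experiment, bars for the mean and whiskers for the SD. In length, repeat peptide libraries with DMSO lie from 5579 to 7840 bases, below the repeat peptide libraries with ibrutinib and the single peptide libraries with DMSO but overlapping with single peptide cells with ibrutinib (lowest 7578 bases), and in count they do not stand apart.

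The wider gene families of these factors and the proteins they work with were counted next. Of 13 relatives in the same families 7 were tested. In repeat peptide cells ibrutinib raised *Bach1*, the other BACH repressor, by 1.03 ± 0.21 on the log2 scale (edgeR adjusted p = 0.00547), from a mean of 2.78 to 5.44 TPM. No other relative was called, where 5.92% of all tested genes were called. *Bach1* also was lower in repeat than in single peptide cells with DMSO, by 1.84 ± 0.21 (edgeR adjusted p = 1.4e-06). In that comparison 3 of the 7 relatives were higher and 2 lower, against the same 47% of all tested genes called. On the TPM scale limma called 0 relatives with ibrutinib in repeat peptide cells. Of 19 partners and co-regulators 1 was called with ibrutinib in repeat peptide cells, a share near the 5.92% of all tested genes. It was *Bcor*, a corepressor that BCL6 recruits, which was lower, at -0.49 ± 0.13 (log2 fold change, edgeR adjusted p = 0.0308). By limma on TPM 0 partners were called there. Between repeat and single peptide cells with DMSO 3 of the 19 partners were higher and 8 lower, where 47% of all tested genes were called.

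Of 16 other stem and memory genes, 7 were higher, none lower and 9 not called with ibrutinib in repeat peptide cells by edgeR (9 and 0 at an unadjusted p under 0.05, 8 and 0 by DESeq2, 5 and 0 by limma on TPM). Their median log2 fold change was 0.71, against 0.00 over all tested genes, of which 4.01% were called higher and 1.92% lower. An unadjusted p under 0.05 was found for 2647 of the 12255 tested genes. The list was chosen with earlier results of these data known, and the part of that choice in these values was not tested. The largest changes were of *Il6ra*, a receptor chain for IL-6, at 2.56 ± 0.27 (edgeR adjusted p = 2.84e-05), and of *S1pr1*, which lets T cells leave lymphoid tissue, at 2.07 ± 0.24 (edgeR adjusted p = 4.86e-05). *Klf3* (1.96 ± 0.28) and *Klf2* (1.42 ± 0.23), of which KLF2 acts on *S1pr1*, followed (edgeR adjusted p = 0.00035 and 0.00107). *S1pr1*, for example, had a mean of 11.6 TPM with DMSO and 46.3 with ibrutinib in repeat peptide cells, and 148 in single peptide cells with DMSO. Between repeat and single peptide cells with DMSO 14 of the 16 were lower and 1 higher, where 24.2% of all tested genes were called lower and 22.8% higher.

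Of 20 tested transcription factors of effector and exhausted cells, 9 were lower, none higher and 11 not called with ibrutinib in repeat peptide cells by edgeR (13 and 3 at an unadjusted p under 0.05, 9 and 2 by DESeq2, 10 and 0 by limma on TPM), with a median log2 fold change of -0.64. Of all tested genes 1.92% were called lower and 4.01% higher, and 2647 of 12255 had an unadjusted p under 0.05. This list, too, was chosen with earlier results of these data known. *Bhlhe40* was at -1.55 ± 0.30, *Prdm1*, which encodes BLIMP1, at -1.5 ± 0.35, *Nr4a1* at -1.42 ± 0.30 and *Nr4a3* at -1.32 ± 0.22, the latter a pair of genes that T cell receptor signals induce. Their edgeR adjusted p-values ranged from 0.00131 to 0.0130. The 3 genes of this list with higher values at an unadjusted p under 0.05, named after their values were seen, were *Eomes* at 1.37 ± 0.45 (edgeR adjusted p = 0.0743), *Maf* at 1.85 ± 0.72 (edgeR adjusted p = 0.137) and *Id2* at 0.48 ± 0.19 (edgeR adjusted p = 0.141). *Eomes*, a T-box factor of effector and memory cells, had a mean of 2.45 TPM with DMSO and 6.12 with ibrutinib in repeat peptide cells, and 27.6 in single peptide cells with DMSO. Between repeat and single peptide cells with DMSO 15 of the 20 were higher and 2 lower, where 22.8% of all tested genes were called higher and 24.2% lower. Beside the same shares, the 10 genes of the cell cycle were all higher in repeat than in single peptide cells with DMSO. Their summed level was between 1889 and 2351 TPM against 497.3 to 903.9. With ibrutinib 8 of them were lower in single peptide cells, where 2.69% of all tested genes were called lower. In repeat peptide cells none was called by edgeR, DESeq2 or limma, with 2 lower at an unadjusted p under 0.05. These genes were higher where *Tcf7*, *Lef1*, *Foxo1* and *Satb1* were lower, and the part of cell division in the levels of these factors was not tested.

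Genes whose pattern over the 18 libraries was most like that of each factor were found by the root mean square difference of centred log2 CPM, among 11570 protein-coding genes. For *Tcf7* these were *Stx2* and *Gramd4* (0.22 and 0.27, against a median of 1.1 over the genes searched), and for *Lef1* they were *Hs6st1* and *Hipk2* (0.20 and 0.21). *Foxo1* was followed most closely by *Slc43a2* and *Scml4* (both 0.13). These genes were chosen for their likeness over the same libraries, so their own differences between groups follow from the choice and are not given as tests. The genes most like the others were *Ppfia1* and *Gigyf2* for *Satb1*, *Cnot11* and *Stn1* for *Id3*, *Mtor* and *Patl1* for *Bach2*, *Polm* and *Cdk8* for *Myb*, and *Tab2* and *Rasa1* for *Bcl6*, at 0.10 to 0.28. *Id3* itself had an SD of 0.20, so that its smallest difference of 0.16 is a weak likeness. The 8 factors were left out of the genes searched.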

How the data were processed

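Transcripts of cultured OT-I cells were sequenced in 18 libraries, whose 4 groups follow the sample labels. The authors trimmed reads with Trim Galore and quantified them with RSEM 1.3.1 around STAR, on GRCm38 and Ensembl genes. They deposited, for each library and gene, expected counts (estimated counts, not normalized), TPM (scaled to the same total in each library), and mean and effective transcript lengths in bases. RSEM divides a read that matches more than 1 gene among them, which could affect family members with similar sequence.

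After rounding of the expected counts, 27903 genes that GENCODE M21 lists as protein-coding or lncRNA were kept, with 98.5% of all counts. Genes passing filterByExpr (12255) were normalized by TMM and tested with edgeR 4.0.16 (glmQLFit with robust estimation, glmQLFTest, a single fit of the 4 groups without a block) in R 4.3.3, with Benjamini-Hochberg adjustment over all tested genes. Median depth was 27420966 expected counts, so that counting error is small for these genes except *Bcl6*. Nothing in the labels says which libraries came from separate mice, so p-values measure the spread between these libraries only. Experiments A to D share a letter from the genotype entry of the labels. Deviations from the group means correlated above 0.1 in all 24 pairs of libraries of the same experiment (0.16 to 0.494, median 0.325). In 97 pairs of different experiments and groups they correlated by -0.44 to 0.404 (median -0.0765), so the ranges overlapped. The letters were taken to pair the libraries, and the paired fit (experiment as replicate block) is given where it changed a call. No library was a copy of another of its group (32 pairs, chi-square per degree of freedom of at least 27.9). Pairs of different groups were not compared in this way. Lengths were tested by exact permutation. Motifs were searched in RefSeq promoters. The script was tested on simulated counts.

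The members and gene lists were chosen with earlier results of these data known. All 8 members were named in every comparison, with the 2 most similar genes of each and at most 4 called genes of a list, those with the largest log2 fold change for ibrutinib in repeat peptide cells. Alternatives were DESeq2 1.42.0 and its size factors, limma 3.58.1 on log2(TPM + 1), no filter, other gene types, an effective length offset, the adjusted p alone, only the compared groups, the block, and each library left out.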

Additional observations from a re-analysis of the deposited data

Results flagged for a closer look

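In 3 of the 32 combinations of a gene and a group a single library stood far from the rest of its group by Dixon's 95% criterion, and chance alone gives about 1 in 20. *Lef1* had 10830 normalized counts in experiment B of single peptide cells with ibrutinib, where the other 3 libraries had between 8727 and 9005. In the same library *Myb* had 3039 normalized counts against 1495 to 1720. *Bcl6* had 352.4 normalized counts in experiment A of repeat peptide cells with DMSO against 130.3 to 165.5. Without that library the difference of *Bcl6* between ibrutinib and DMSO in repeat peptide cells was 0.71 in place of 0.27 on the log2 scale, and was not called (edgeR adjusted p = 0.0905). Its difference between repeat and single peptide cells with DMSO was then 0.01 in place of 0.45 (edgeR adjusted p = 0.976).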

How the results depend on the processing

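No value of the 8 genes reversed a called direction under any alternative, and 1305 of 1336 values of single genes stayed on the same side of the thresholds. For ibrutinib in repeat peptide cells, 3 genes were called, but 1 with only the compared groups in the fit and 0 with limma on log2(TPM + 1). In that scaling the median of all genes moved by -0.09 there, and by 0.14 between repeat and single peptide cells with DMSO. Limma on TPM also called 3 in place of 5 genes for repeat peptide cells with ibrutinib against single peptide cells with DMSO, and did not call *Satb1* in the comparisons of repeat with single peptide cells. The replicate block called 1 gene in place of 0 for ibrutinib in single peptide cells and 2 in place of 0 for the difference between the ibrutinib effects. It lost no call. Restricting the block to experiments A to D, an alternative chosen after seeing the data, gave the same counts of 1 and 2. Over all genes, ibrutinib in repeat peptide cells gave 726 calls, against 1694 with the block, 1107 with DESeq2, 464 with only the compared groups, 395 with limma on TPM and 354 to 874 with a library left out (lowest without C or D with DMSO). In single peptide cells it gave 373, against 1114, 602, 181, 155 and 131 to 460 (lowest without A with ibrutinib). The difference between the effects gave 154, against 679 with the block, 341 with DESeq2, 75 with limma and 84 to 171 with a library left out. Limma on TPM gave 2996 in place of 4703 calls between repeat and single peptide cells with ibrutinib, and 2504 in place of 4028 for repeat peptide cells with ibrutinib against single peptide cells with DMSO. The cause of these differences was not tested. In mean transcript length, 1 of the 8 genes had an unadjusted p under 0.05 between ibrutinib and DMSO in repeat peptide cells and 1 between repeat and single peptide cells with DMSO, and limma on log2 lengths gave 1 in each as well, with and without the block. Leaving out library B of repeat peptide cells with ibrutinib added a call of *Id3*, higher in repeat than in single peptide cells with ibrutinib by 0.33 (edgeR adjusted p = 0.0478). *Bcl6*, with 100.9 to 352.4 normalized counts, is the gene for which depth limits most.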
